A study of Rattus norvegicus with 24 samples.

Results

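The comparison Ex vs. CC-Ex asked what monocrotaline did to the medial gastrocnemius of rats that trained on a treadmill. It took 12 of the 24 RNA-seq libraries of the series, chosen by their titles, 6 from saline-injected exercised rats (Ex) and 6 from monocrotaline-injected exercised rats (CC-Ex). All were male Wistar rats, and every one of these 12 ran on the treadmill 5 days a week for 4 weeks. A library came from the left leg of 1 rat, with no pooling. Monocrotaline was given once. It damages lung vessels and serves as a model of pulmonary arterial hypertension with right heart failure and loss of muscle, called cardiac cachexia (CC), so it did not act on the muscle alone. Rats that died, or whose right ventricle was not enlarged, had left the CC-Ex group before sampling, so the 6 are survivors with heart disease. The Sed and CC-Sed rats (6 each, the same injections without training) entered only the estimate of spread and the last comparison.

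In a wasting muscle, protein is broken down faster than it is made. Transcription factors of the FoxO family, which insulin and growth-factor signalling hold out of the nucleus, drive the genes of atrophy, among them the ubiquitin ligases Fbxo32 (atrogin-1) and Trim63 (MuRF1) that mark muscle proteins for the proteasome, and the genes of autophagy. Glucocorticoids act on several of the same genes, and they raise enzymes that export nitrogen from muscle as glutamine. The gene lists described here follow these routes, from the stress signals to the machinery of breakdown, then fuel use, matrix and vessels.

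Total counts in the 12 exercised rats lay between 39858813 and 46699765 over 10851 genes, all with at least 10 counts in every rat of the series. Genes that are low or silent in any rat were therefore not analysed here. CC-Ex replicate 5 stood apart from the other 11. It lay at 105.2 on the first principal component, which held 49.5% of the variance, while the others lay between -29.7 and 18.7. It had the highest value of the 6 CC-Ex rats in 36.9% of all genes and the lowest in 35.2%. The slow-fibre troponin Tnnc1 was at 3.74 CPM in Ex replicate 1, 0.504 in CC-Ex replicate 4 and 0.375 in CC-Ex replicate 5, against 142 to 1003 in the other 9. Over the 10 measured genes of the slow-fibre sarcomere, these 3 rats had median differences from the Ex mean of -3.66, -4.76 and -4.45 on the log2 scale. The tissue carried its defining markers in every rat. The summed level of 12 muscle-fibre markers was 107869 to 141612 CPM in Ex and 99864 to 171533 CPM in CC-Ex. No muscle-fibre marker passed the test.

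In trained rats, monocrotaline went with higher levels of FoxO factors (Foxo1, Foxo3), brakes on mTOR (Ddit4, Sesn1), the ubiquitin ligase Fbxo32, the metal-binding Mt2A and enzymes of glutamine and proline (Glul, Prodh), and with lower levels of the transferrin receptor Tfrc and of matrix proteins (Sparc, Col18a1). Few genes passed the test, and none of those just named passed it in all 12 fits that each left out 1 exercised rat. Only Acer2 and Inhbb did, and a fit of the 12 exercised rats alone called 1 gene. The median size of the Log2FC over all genes was 0.22, and its 90th percentile was 0.62. A total of 348 genes, 3.21% of those tested, differed by a Log2FC of at least 1 in size, 224 higher and 124 lower in CC-Ex. DEGs had to pass an edgeR adjusted p-value of 0.05 and reach a Log2FC of 1 or -1, and there were 48 upregulated (0.442% of the 10851 genes) and 9 downregulated (0.0829%). Their median Log2FC was 1.76 and -1.08. At the adjusted p-value alone, 95 genes were higher (0.875%) and 13 lower (0.12%). Before adjustment, 1610 genes (14.8%) were higher and 838 (7.72%) lower at p under 0.05, a split that became 1091 higher and 1101 lower with upper-quartile scaling. In 80 genes (0.737%) every CC-Ex rat was above every Ex rat, and in 37 (0.341%) every one was below, or 50 and 65 with upper-quartile scaling. Among the 57 DEGs, 8 had no overlap between the groups: Acer2, Gpr157, Ip6k3, Il6r and Cep85l were higher, and Pcbd1, Plxna3 and Spon1 lower.

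**Figure D1:**
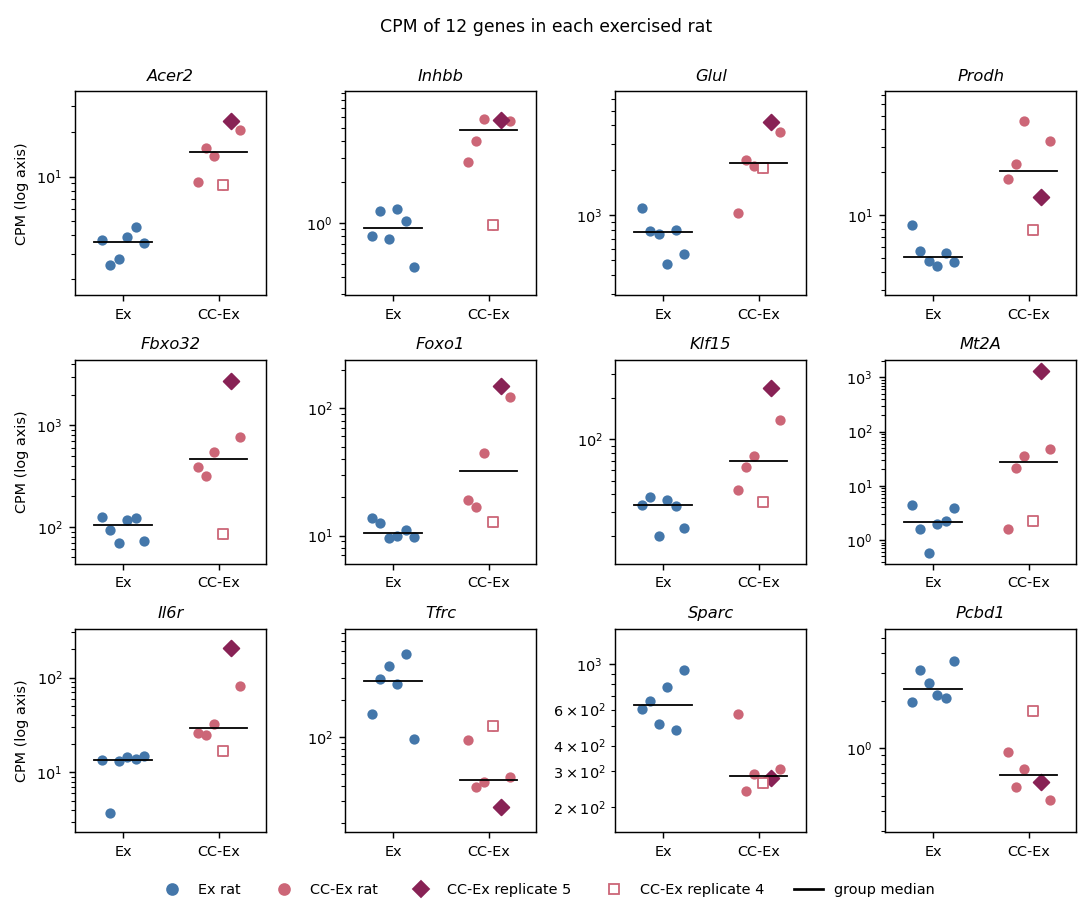
CPM of 12 genes in each of the 12 exercised rats, 1 panel a gene, on log axes that differ between panels, with the group median as a line. In Acer2 and Il6r the 6 CC-Ex rats lie above the 6 Ex rats, in Pcbd1 they lie below them, and in Mt2A CC-Ex replicate 5 stands at 1295 CPM while CC-Ex replicates 1 and 4 lie among the Ex rats.

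The gene with the smallest p-value was Acer2, an alkaline ceramidase of the Golgi that turns ceramide into sphingosine. Its level was 2.51 to 4.52 CPM in Ex (median 3.61) and 8.78 to 23.7 CPM in CC-Ex (median 14.7), so the groups did not touch, and it rose 4.39-fold (Log2FC 2.13, standard error 0.26, edgeR adjusted p = 0.000269). The exact permutation test gave p = 0.00216, the smallest that 6 against 6 rats allow. Its Log2FC lay between 1.95 and 2.25 when each exercised rat was left out in turn. Of the 21 measured genes of ceramide and sphingolipid metabolism, Acer2 and Sptssa rose. Sptssa is a small subunit of serine palmitoyltransferase, the enzyme that starts sphingolipid synthesis. Its Log2FC was 0.68 (adjusted p = 0.0479), and all 6 CC-Ex rats were above all Ex rats. The median Log2FC of the list was 0.05, near the 0.01 of all genes and -0.03 with upper-quartile scaling. In CC-Ex replicate 5 alone, the sphingomyelin synthase Sgms1 was at 145 CPM, against 18.7 to 31.7 in the other 5 CC-Ex rats.

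Inhbb, the beta-B subunit of activins and inhibins, was next. It was at 0.469 to 1.26 CPM in Ex (median 0.914) and 0.96 to 5.81 CPM in CC-Ex (median 4.82), with 5 of 6 CC-Ex rats above every Ex rat and CC-Ex replicate 4 at 0.96 CPM among them (Log2FC 2.17, standard error 0.34, edgeR adjusted p = 0.00717). Acer2 and Inhbb were the only DEGs that were called in each of the 12 fits without 1 rat. No other of the 25 measured genes of activin, myostatin and TGF-beta signalling passed the test. Before adjustment, 3 of the 25, Inhbb included, had a p under 0.05 and were higher, a share under the 14.8% of all genes, and 6 were lower, or 3 without Ex replicate 6. Of all 10851 genes, 838 (7.72%) were lower at this p, or 640 without that rat. The ligand Tgfb3 had a Log2FC of -0.65 (adjusted p = 0.0603). For myostatin, Mstn, the Log2FC was -0.29 (adjusted p = 0.785), and 0.17 without Ex replicate 1.

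The list that joins FoxO factors, mTOR brakes and growth-arrest genes held the largest number of DEGs of any list. Members of all lists were chosen with earlier results of these data known. Neither this rank nor the shares of list members are therefore a test of a route. Of 25 measured FoxO, mTOR-brake and growth-arrest genes, 8 rose, 15 had an unadjusted p under 0.05 and were higher, and 4 were lower, beside 14.8% and 7.72% of all genes. None of the 8 was a DEG when any 1 Ex rat, CC-Ex replicate 5 or CC-Ex replicate 6 was left out. Foxo1 was at 9.63 to 13.8 CPM in Ex (median 10.5), and at 19.2, 16.8, 44.8, 12.9, 149 and 121 CPM in CC-Ex replicates 1 to 6. CC-Ex replicate 4 lay inside the Ex range while the other 5 were above it (Log2FC 2.45, standard error 0.52, edgeR adjusted p = 0.0329). Foxo3 rose as well (Log2FC 1.52, standard error 0.35, edgeR adjusted p = 0.035), with 10.7 to 17.7 CPM in Ex (median 13.2) and 16.9 to 91.7 CPM in CC-Ex (median 28.3), where CC-Ex replicate 4 at 16.9 CPM again lay inside the Ex range. Both factors sit on top of the FoxO route, and Depp1, a target of FoxO that acts in autophagy, rose with them (Log2FC 2.26). Several brakes on mTOR, the kinase that drives protein synthesis, also rose: Ddit4 by a Log2FC of 2.83, its relative Ddit4l by 1.72 and the sestrin Sesn1 by 2.31. Pik3r1, the regulatory subunit of PI3-kinase, rose by 1.75 and the growth-arrest gene Gadd45g by 1.81. The median Log2FC of the list was 1.08 and 0.72 without CC-Ex replicate 5. That rat was the highest for Sesn1 at 724 CPM, and CC-Ex replicate 6 followed at 462 CPM, against 39.8 to 74.9 in Ex.

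Among 20 measured ubiquitin ligases of muscle atrophy, 2 rose. Fbxo32 was at 69.5 to 125 CPM in Ex (median 105) and 86.0 to 2755 CPM in CC-Ex (median 469.9) (Log2FC 3.02, standard error 0.64, edgeR adjusted p = 0.0329), an 8.12-fold rise. All but 1 of the CC-Ex rats were above all Ex rats, and CC-Ex replicate 4 was at 86.0 CPM. Klhl38, a muscle adaptor of cullin ligases, rose by a Log2FC of 1.44. Trim63, which the adjusted test did not pass, was at 157 to 295 CPM in Ex (median 192) and 190.2 to 4846 CPM in CC-Ex (median 452), with the highest value in CC-Ex replicate 5 (Log2FC 2.61, adjusted p = 0.0529, and 1.34 without that rat). Cblb, which marks the insulin receptor substrate for breakdown, had a Log2FC of 1.24 (adjusted p = 0.0678) that became 0.55 without CC-Ex replicate 5, and Rnf115 was lower at a Log2FC of -0.50 (adjusted p = 0.14). The ligases Fbxo31 and Fbxo30 rested on CC-Ex replicate 5: Fbxo31 was at 353 CPM in that rat and at 81.8 to 91.4 in the other 5, and without it the Log2FC of Fbxo30 moved from 1.45 to 0.39. The number of ligases with an unadjusted p under 0.05 and a higher level was 10 of 20 with all rats and 5 without CC-Ex replicate 5. Over all genes the shares in these fits were 14.8% and 7.76%.

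The machinery that these ligases feed had higher values in most members, but largely through CC-Ex replicate 5. Of 34 proteasome subunits, none passed the adjusted test, and 20 had an unadjusted p under 0.05 and were higher. Their median Log2FC was 0.52. Psme4, the PA200 activator of the proteasome, was at 214 to 379 CPM in Ex (median 287) and 305 to 2096 CPM in CC-Ex (median 407), with CC-Ex replicate 5 the highest and CC-Ex replicate 6 next at 639.7 CPM (Log2FC 1.27, adjusted p = 0.0813, and 0.53 without replicate 5). The lid subunit Psmd8 was at 393 CPM in that rat and at 58.5 to 98.1 in the other CC-Ex rats. Without CC-Ex replicate 5 the list had a median of 0.19, and 1 of the 34 subunits was higher at an unadjusted p under 0.05. Over all genes, that fit had 842 higher genes (7.76%) at this p, against 1610 (14.8%) with all rats. With any other rat left out, 15 to 27 subunits were higher at this p. Psma6 and Psmc2 showed the same, with Log2FC values of 0.43 and 0.65 that became 0.25 and 0.35. The genes of translation showed a like pattern: 7 of 25 translation factors and tRNA synthetases had an unadjusted p under 0.05 with a median Log2FC of 0.26, and 1 of 25 with a median of 0.05 without CC-Ex replicate 5. The initiation factor Eif4a2 had a Log2FC of 0.45 (adjusted p = 0.129) and the elongation factor Eef2 of 0.31 (adjusted p = 0.14). In that rat the initiation factor Eif3a was at 799 CPM, against 198 to 225 in the other CC-Ex rats.

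Of 28 measured genes of autophagy and the lysosome, Gabarapl1 rose, 18 had an unadjusted p under 0.05 and were higher, beside 14.8% of all genes, and none was lower. Gabarapl1, which coats the growing autophagosome, was at 41.8 to 75.8 CPM in Ex (median 52.6) and 48.9 to 702 CPM in CC-Ex (median 158) (Log2FC 2.10, standard error 0.42, edgeR adjusted p = 0.0325). Its relative Map1lc3b had 898 CPM in CC-Ex replicate 5 and 56.1 to 150.4 in the other CC-Ex rats (Log2FC 2.14, adjusted p = 0.0525, and 0.87 without that rat). Bnip3, a receptor that takes mitochondria to the autophagosome, was at 278 to 383 CPM in Ex (median 316) and 342 to 2693 CPM in CC-Ex (median 601) (adjusted p = 0.0586), with a Log2FC of 0.77 without that rat. The starting kinase Ulk1 had a Log2FC of 1.16 (adjusted p = 0.0603) and the lysosomal protease Ctsl of 1.72 (adjusted p = 0.0631). The median of the list was 0.37, and 0.21 with 10 genes under 0.05 without CC-Ex replicate 5. In that fit 7.76% of all genes were higher at this p.

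**Figure D2:**
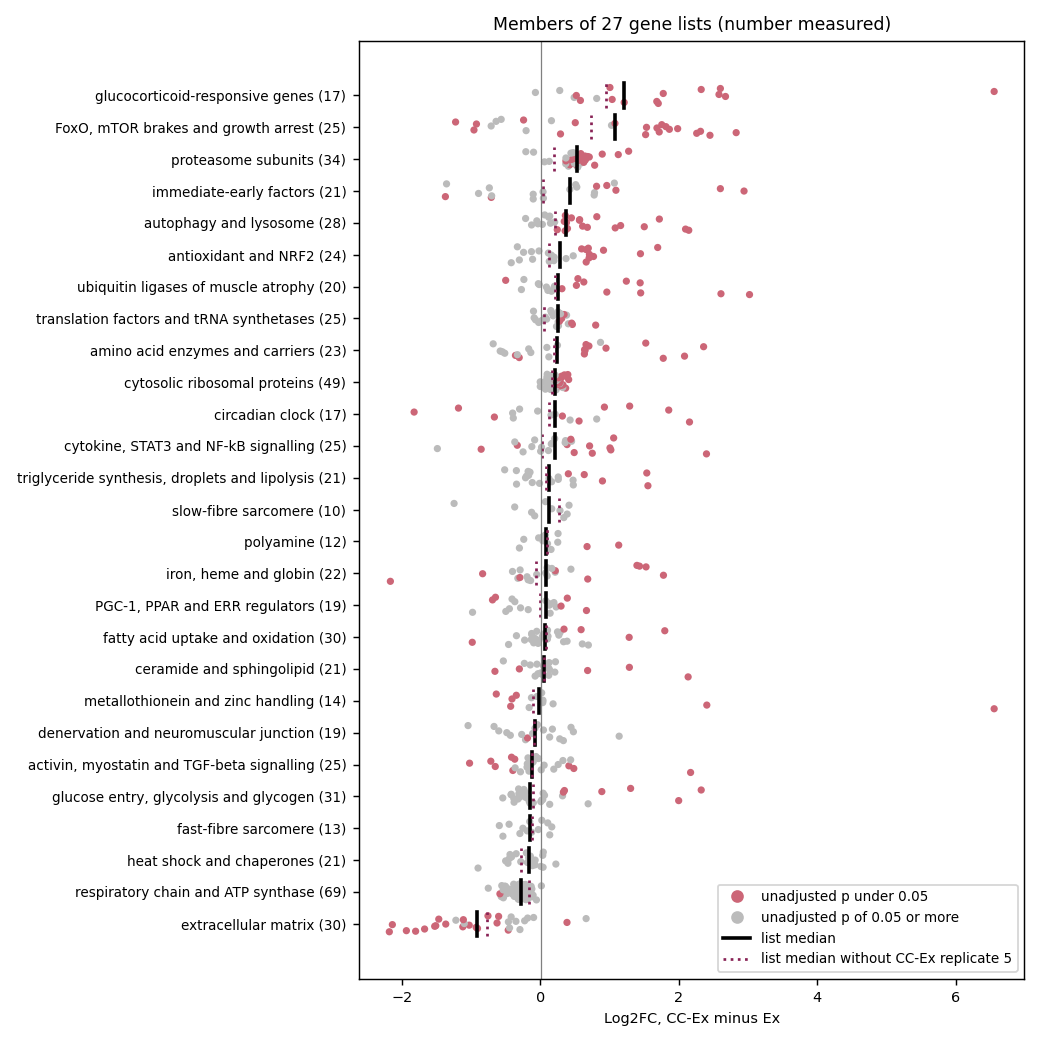
Log2FC (CC-Ex minus Ex) of every measured member of 27 gene lists, in order of the list median, with the median of all rats as a solid line, that without CC-Ex replicate 5 dotted, and members with an unadjusted p under 0.05 coloured. The glucocorticoid list is highest at 1.21 and the extracellular matrix lowest at -0.92, and the dotted line of the proteasome list lies at 0.19, far left of its solid line at 0.52.

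Glucocorticoid-responsive genes had the highest median of the 27 lists, 1.21 over 17 measured genes (0.95 without CC-Ex replicate 5). Klf15, Cebpd, Glul and Mt2A rose, 13 had an unadjusted p under 0.05 and were higher, beside 14.8% of all genes, and none was lower. Klf15, a factor that turns on amino acid breakdown, was at 20.1 to 38.3 CPM in Ex (median 33.3) and 35.5 to 235 CPM in CC-Ex (median 69.3) (Log2FC 1.68, standard error 0.35, edgeR adjusted p = 0.0325). The partner factor Cebpd rose more (Log2FC 2.67), from 6.53 to 25.2 CPM in Ex (median 11.8) to 10.2 to 195 CPM in CC-Ex (median 63.7), and CC-Ex replicates 1 and 4 lay within the Ex range. Fkbp5, a chaperone of the glucocorticoid receptor and a usual read-out of it, had a Log2FC of 1.70 (adjusted p = 0.0517), and 5 of 6 CC-Ex rats were above all Ex rats. Arrdc2 was at a Log2FC of 2.60 (adjusted p = 0.0645) and Tsc22d3 (GILZ) at a Log2FC of 1.21 (adjusted p = 0.0623), the latter at 0.61 without CC-Ex replicate 5.

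Mt2A, a metallothionein that binds zinc and copper, had the largest difference of all genes, unevenly spread over the CC-Ex rats. The Ex rats were at 0.587 to 4.51 CPM (median 2.11). The CC-Ex rats were, in order of replicate, at 1.59, 21.3, 34.7, 2.21, 1295 and 47.5 CPM. CC-Ex replicates 1 and 4 lay within the Ex range and the other 4 above it. Its Log2FC of 6.56 (adjusted p = 0.0342) moved to 3.09 without CC-Ex replicate 5. The exact permutation test gave p = 0.039. Of 14 genes of metal and zinc handling, Mt2A rose and Slc39a1, the zinc importer ZIP1, was lower past the adjusted test (Log2FC -0.41, adjusted p = 0.0329), with all 6 CC-Ex rats under all Ex rats. The list median was -0.01. Tmem140, a small membrane protein, showed a like spread, 8.16 to 10.3 CPM in Ex (median 9.01) and 7.85 to 431 CPM in CC-Ex (median 28.6), and its Log2FC of 3.45 became 1.83 without that rat.

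The stretch before the start of both genes is printed because these DEGs had the largest rises, and because metal response elements and forkhead sites are motifs through which zinc and FoxO factors are known to act. RefSeq promoters of GRCr8, which is not the build of the counts, matched 45 of the 57 DEGs. Capitals mark, in Mt2A, the metal response cores TGCACNC and TGCGCNC, and in Tmem140 the forkhead motif GTAAACA, on either strand, with N any base. No match overlapped another. The 250 bases end just before the start site and are written 5′ to 3′ in the direction of the gene.
Mt2A, chr19:10838709-10838958, strand minus: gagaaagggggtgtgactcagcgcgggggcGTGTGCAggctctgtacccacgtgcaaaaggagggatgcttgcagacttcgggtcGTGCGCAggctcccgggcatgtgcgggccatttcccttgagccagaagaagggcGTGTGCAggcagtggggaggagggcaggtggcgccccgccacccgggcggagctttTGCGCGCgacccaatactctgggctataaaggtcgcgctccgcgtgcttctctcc
Tmem140, chr4:64503371-64503620, strand plus: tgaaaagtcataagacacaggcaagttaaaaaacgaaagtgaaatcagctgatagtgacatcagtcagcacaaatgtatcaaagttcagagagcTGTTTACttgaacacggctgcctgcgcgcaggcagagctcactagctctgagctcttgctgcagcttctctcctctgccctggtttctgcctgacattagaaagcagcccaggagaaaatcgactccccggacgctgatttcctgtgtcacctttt
Mt2A held 4 matches (2 of each core), and 0.266% of all 33469 promoters held as many. Of all promoters, 10.3% held TGCACNC, 11.8% TGCGCNC and 3.21% GTAAACA. Among the 45 matched DEGs, 3 promoters held TGCACNC, 12 TGCGCNC, Mt2A and Tmem140 among them, and 1 GTAAACA (Tmem140). The palindromic glucocorticoid response element was also searched, and was in 0 of the 45 and in 0.0359% of all promoters. These are letters in a window and name no bound site.

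Of 23 measured enzymes and carriers, Glul and Prodh rose, and at an unadjusted p under 0.05, 10 were higher and 2 lower, or 4 lower without CC-Ex replicate 4, beside 14.8% and 7.72% of all genes. Glul, glutamine synthetase, was at 471 to 1124 CPM in Ex (median 771) and 1034 to 4189 CPM in CC-Ex (median 2235) (Log2FC 1.78, standard error 0.32, edgeR adjusted p = 0.0325). The groups touched through CC-Ex replicate 1 at 1034 CPM and Ex replicate 1 at 1124 CPM. Prodh, the first step of proline breakdown, was at 4.40 to 8.46 CPM in Ex (median 5.10) and 7.87 to 46.1 CPM in CC-Ex (median 20.4) (Log2FC 2.08), and its highest value was in CC-Ex replicate 3, not 5, so that the Log2FC became 2.18 without replicate 5 and 1.77 without replicate 3. The other step into glutamate, ornithine aminotransferase Oat, had a Log2FC of 0.64 (adjusted p = 0.0517). Dbt and Bckdha, subunits of the branched-chain ketoacid dehydrogenase, had Log2FC values of 0.95 (adjusted p = 0.0562) and 0.64 (adjusted p = 0.0579), and all 6 CC-Ex rats were above all Ex rats in Dbt. Outside that list, the carrier Slc7a6 rose (Log2FC 2.77), but stood at 495 CPM in CC-Ex replicate 5 and at 16.9 to 101 in the others, and was 1.18 without it. Slc7a8 and Slc43a1 had Log2FC values of 2.36 (adjusted p = 0.0667) and 1.52 (adjusted p = 0.0558), and that of Slc7a8 became 1.16 without CC-Ex replicate 5.

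Fuel genes differed in few members. Of 21 genes of triglyceride synthesis, droplets and lipolysis, Plin4, a coat protein of lipid droplets, passed the adjusted test: 204 to 316 CPM in Ex (median 266) and 347 to 659 CPM in CC-Ex (median 456) (Log2FC 0.90, adjusted p = 0.0409), with no overlap. The lipase Pnpla2 was at a Log2FC of 1.55 (adjusted p = 0.0682) and Lpin1, which makes diacylglycerol, at a Log2FC of 1.54 (adjusted p = 0.068), and without CC-Ex replicate 5 their Log2FC values were 0.96 and 0.70. Dgat2, the last step of triglyceride synthesis, had a Log2FC of 0.12 (adjusted p = 0.843), with Ex replicate 4 the highest of the 12 rats at 101 CPM, and all CC-Ex rats lay inside the Ex range. The median of the list was 0.12. In fatty acid uptake and oxidation (30 genes, median 0.07), Acad11, an acyl-CoA dehydrogenase, rose from 25.2 to 50.6 CPM in Ex (median 32.5) to 29.7 to 126 CPM in CC-Ex (median 90.1) (Log2FC 1.28), and Ucp3 was at a Log2FC of 1.80 (adjusted p = 0.143). Pdk4, which closes pyruvate entry to the mitochondria, ranged from 71.4 to 1848 CPM in CC-Ex and from 28.8 to 467 in Ex (Log2FC 2.32, adjusted p = 0.116). Aqp4, the water channel of fast fibres, was at 11.6 to 86.3 CPM in Ex (median 40.3) and 5.98 to 177 CPM in CC-Ex (median 93.5) (Log2FC 1.02, adjusted p = 0.294), and CC-Ex replicate 5 was the lowest of the 12 rats. Acss1, which makes acetyl-CoA from acetate in mitochondria, was at a Log2FC of 1.30 (adjusted p = 0.0645), and the glycogen scaffold Ppp1r3c at a Log2FC of 0.89 (adjusted p = 0.0884), in a list of 31 glucose genes with median -0.15.

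The respiratory chain and ATP synthase were lower in 68 of 69 genes by the sign of the Log2FC, with a median of -0.29, and 1 of them, Ndufs5 (Log2FC -0.59, adjusted p = 0.175), had an unadjusted p under 0.05. Without CC-Ex replicate 1, 18 of the 69 had one, and without Ex replicate 3, Ex replicate 4, CC-Ex replicate 5 or CC-Ex replicate 6 none did. Over all genes, 838 (7.72%) were lower at this p with all rats and 1155 without CC-Ex replicate 1. The medians of the respiratory list without CC-Ex replicates 1 and 5 were -0.41 and -0.17. Slow-fibre genes had a median of 0.12 over 10 genes, from -0.11 to 0.53 as each rat was left out, and none had an unadjusted p under 0.05. Fast-fibre genes had a median of -0.15 over 13. Of 19 PGC-1, PPAR and ERR regulators none passed the adjusted test. Cytosolic ribosomal protein genes were higher in 47 of 49, with a median of 0.22, and 18 of them had an unadjusted p under 0.05, a count that ran from 9 without CC-Ex replicate 3 to 29 without CC-Ex replicate 4. Of all 10851 genes, 1610 (14.8%) were higher at this p, or 1636 and 1996 without those rats. Rps28 was at a Log2FC of 0.40 (adjusted p = 0.0594). Of 21 heat shock and chaperone genes (median -0.17), none had an unadjusted p under 0.05.

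Of the cytokine list of 25 genes, Il6r, the receptor of interleukin-6, rose. Its level was 3.72 to 14.7 CPM in Ex (median 13.6) and 16.9 to 205 CPM in CC-Ex (median 29.3), with every CC-Ex rat above every Ex rat (Log2FC 2.40, adjusted p = 0.035, and 1.56 without CC-Ex replicate 5). In Ex replicate 2 it was at 3.72 CPM while the other 5 Ex rats had 13.1 to 14.7 CPM. Its co-receptor Il6st was at 279.9 CPM in CC-Ex replicate 5 alone (Log2FC 0.75, adjusted p = 0.15, and 0.21 without it). The downstream kinase Jak2 was at a Log2FC of 1.02 (adjusted p = 0.0678) and the suppressor Socs2 at a Log2FC of -0.86 (adjusted p = 0.0812). Secreted and vascular genes that rose were Adm, the vasodilator adrenomedullin, from 1.17 to 2.32 CPM in Ex (median 1.97) to 2.23 to 10.6 CPM in CC-Ex (median 6.94), Pgf, placental growth factor, from 0.575 to 1.40 CPM in Ex (median 1.11) to 0.72 to 6.19 CPM in CC-Ex (median 5.25), and Vwf, von Willebrand factor of endothelium, from 27.2 to 47.5 CPM in Ex (median 34.9) to 31.2 to 133 CPM in CC-Ex (median 75.0). Their Log2FC values were 1.79, 2.01 and 1.12. In Pgf and Adm, CC-Ex replicates 1 and 4 lay within the Ex range, and the other 4 above. Of 14 endothelial markers Vwf alone passed the adjusted test, Kdr was at a Log2FC of 0.58 (adjusted p = 0.104) and Plvap at a Log2FC of -0.82 (adjusted p = 0.104), and the median was 0.04. The oxygen-sensing hydroxylase Egln3 rose as well, at 63.1 to 122 CPM in Ex (median 92.6) and 95.8 to 723 CPM in CC-Ex (median 275) (Log2FC 1.69).

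Of the remaining upregulated DEGs, several encode regulators. Maff, a small Maf transcription factor and the only DEG among 21 immediate-early factors, was at 1.36 to 3.39 CPM in Ex (median 2.78) and 1.70 to 54.7 CPM in CC-Ex (median 8.68) (Log2FC 2.60, and 1.63 without CC-Ex replicate 5). Myc, of the same list, had a Log2FC of 2.94 (adjusted p = 0.0623), and of 1.21 without CC-Ex replicate 5, with 111 CPM in CC-Ex replicate 5 and 2.19 to 13.0 in the other CC-Ex rats. Egr1 and Jund were lower before adjustment, at a Log2FC of -1.37 (adjusted p = 0.0994) and -0.71 (adjusted p = 0.084). The list median moved from 0.43 to 0.04 without that rat. Gpr157, an orphan receptor, was at 18.8 to 24.9 CPM in Ex (median 22.6), and at 34.1, 37.3, 62.6, 26.0, 404 and 138 CPM in CC-Ex replicates 1 to 6, with no overlap (Log2FC 2.39, and 1.41 without CC-Ex replicate 5).

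Ip6k3, an inositol hexakisphosphate kinase of muscle, was at 38.4 to 62.6 CPM in Ex (median 50.5) and 64.5 to 176 CPM in CC-Ex (median 94.4), with no overlap and a modest Log2FC of 1.11. The inositol kinase Itpk1 rose by 1.29, but by 0.76 without CC-Ex replicate 5, in which it stood at 25.9 CPM against 5.53 to 9.00 in the other CC-Ex rats. The kinase Pim3 had a Log2FC of 1.65 and Pde4d, which breaks down cyclic AMP, of 1.41. Others, each with its Log2FC, were Art5, an ADP-ribosyltransferase (1.52), the heparan sulfate proteoglycan Sdc4 (1.98), the nuclear receptor coactivator Pnrc1 (1.71), Zfp622 (2.17), Cyria (1.73), Tmem252 (1.49) and Armc2 (1.77). Cep85l had no overlap, at 12.1 to 19.6 CPM in Ex (median 17.6) and 20.3 to 72.0 CPM in CC-Ex (median 41.8) (Log2FC 1.47). The last were Atosa (1.49), the glutathione transferase Gstm2 (1.33), Tp53i11 (1.31), Wbp1l (1.20), the non-muscle myosin Myh14 (1.15), Brpf3 (1.08) and the unnamed gene AABR07008066.2 (1.42).

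Some genes had a small p-value but a Log2FC under 1, and so were not DEGs. Fmr1, the RNA-binding protein lost in fragile X syndrome, was at 20.7 to 22.7 CPM in Ex (median 22.3) and 25.2 to 31.3 CPM in CC-Ex (median 29.2), with no overlap and the fourth smallest p-value of all genes (1.54e-05), yet a Log2FC of 0.37. Pcnt, the centrosome scaffold pericentrin, had the seventh (3.35e-05) and a Log2FC of 0.86 (adjusted p = 0.0325).

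The downregulated DEGs were few and had smaller differences. Tfrc, the transferrin receptor that takes up iron, was at 95.7 to 475 CPM in Ex (median 285) and 26.8 to 122 CPM in CC-Ex (median 45.0) (Log2FC -2.17, standard error 0.50, edgeR adjusted p = 0.0377). All CC-Ex rats but replicate 4, at 122 CPM, were under every Ex rat, and replicate 1 at 94.7 CPM only just under the lowest Ex value of 95.7. Pcbd1, a dehydratase that recycles biopterin and a partner of HNF1 factors, was at 1.95 to 3.56 CPM in Ex (median 2.38) and 0.471 to 1.73 CPM in CC-Ex (median 0.676), with no overlap (Log2FC -1.61, exact p = 0.00216). C1qtnf6, a secreted relative of adiponectin, was at 2.84 to 13.1 CPM in Ex (median 5.67) and 0.633 to 4.09 CPM in CC-Ex (median 1.44) (Log2FC -1.81). The semaphorin receptor Plxna3 and the secreted F-spondin Spon1 had no overlap either, at low levels: Plxna3 at 1.47 to 3.60 CPM in Ex (median 2.04) and 0.563 to 1.37 CPM in CC-Ex (median 1.02) (Log2FC -1.07), and Spon1 at 1.70 to 3.44 CPM in Ex (median 2.28) and 0.868 to 1.49 CPM in CC-Ex (median 1.09) (Log2FC -1.11). Fads2, the delta-6 desaturase of fatty acids, fell by 1.08 on the log2 scale, and Gask1b, a kinase-like protein of the Golgi, by 1.05. Single rats moved several of these falls under 1 in size. Without Ex replicate 6 the Log2FC was -0.85 for Plxna3 and -0.90 for Gask1b. For Fads2 it was -0.96 without Ex replicate 4, and for Spon1 -0.99 without Ex replicate 2.

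Extracellular matrix genes were lower as a list. Of 30 measured genes, Sparc fell, 18 had an unadjusted p under 0.05 and were lower, beside 7.72% of all genes, and 1 was higher. Sparc, a protein that binds collagen, was at 479.9 to 933 CPM in Ex (median 634) and 241 to 568 CPM in CC-Ex (median 283) (Log2FC -1.03, standard error 0.22, edgeR adjusted p = 0.0329), and CC-Ex replicate 1 at 568 CPM lay among the Ex rats while the other 5 had 241 to 308. Col18a1, the collagen of basement membranes that yields endostatin, fell from 13.4 to 28.3 CPM in Ex (median 21.5) to 4.27 to 14.5 CPM in CC-Ex (median 9.82) (Log2FC -1.07). The fibril collagens Col1a1 and Col3a1 varied widely among the Ex rats, from 181 to 1543 and from 344 to 2185 CPM, and their Log2FC values were -2.18 (adjusted p = 0.0828) and -1.94 (adjusted p = 0.0884). Col15a1 was at a Log2FC of -1.53 (adjusted p = 0.0773), Col6a2 at a Log2FC of -1.12 (adjusted p = 0.0811) and periostin, Postn, at a Log2FC of -2.14 (adjusted p = 0.0897). Ex replicate 6 was the highest of the 6 Ex rats in Col1a1, Col3a1, Col6a2 and Postn. The list median of -0.92 became -0.53 without that rat, with 11 of 30 genes lower at an unadjusted p under 0.05. In that fit 640 of all 10851 genes were lower at this p.

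Of 10 fibroblast markers, 5 are also in the matrix list. The summed level of the 10 was 1280.1 to 5842 CPM in Ex and 651 to 2687 CPM in CC-Ex. At an unadjusted p under 0.05, 5 of the 10 were lower, beside 7.72% of all genes. The 10 markers had a median Log2FC of -1.12, or -0.59 without Ex replicate 6. Their part in the matrix result was not tested. In bulk RNA, fewer cells of a type and less RNA per cell cannot be told apart. Of 14 leukocyte markers none had an unadjusted p under 0.05, at a sum of 99.3 to 506 CPM in Ex and 77.1 to 451 CPM in CC-Ex. Among genes of Schwann cells and nerve, Prx, S100b and Pmp22 had Log2FC values of -1.02 (adjusted p = 0.14), -1.45 (adjusted p = 0.154) and -0.99 (adjusted p = 0.166). Ex replicate 1 was the highest of the 12 rats in each, with 23.5 CPM of the myelin gene Prx against 4.33 to 7.33 in the other Ex rats. Without that rat the Log2FC values were -0.43, -1.06 and -0.39. In denervation and neuromuscular junction genes (19, median -0.08) none passed the adjusted test.

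Beside the fall of Tfrc, the heme synthesis enzyme Alas1 had a Log2FC of -0.84 (adjusted p = 0.154), and the heme-degrading Hmox1 of 1.78 (adjusted p = 0.0786), with 2.20 to 7.00 CPM in Ex (median 3.24) and 3.61 to 28.6 CPM in CC-Ex (median 10.2). The 3 globin genes Hbb, Hba-a1 and Hba-a3, which include near copies that can share reads, had Log2FC values of 1.53, 1.43 and 1.39, all with an unadjusted p under 0.05 and none past adjustment. Hbb was at 425 CPM in CC-Ex replicate 2 and at 13.2 in CC-Ex replicate 5, the highest and lowest of the 12 rats. Without CC-Ex replicate 2 none of the 3 had a p under 0.05. The summed globin level was 92.2 to 209.6 CPM in Ex and 33.8 to 960.0 CPM in CC-Ex, and the part of blood in the samples was not tested. The 22 genes of the list had a median of 0.09.

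Clock genes had values on both sides. The rats lived on a reversed light cycle and trained in the dark. Nfil3, a repressor that works against the clock output factor Dbp, rose from 7.46 to 47.9 CPM in Ex (median 15.0) to 27.5 to 185 CPM in CC-Ex (median 54.3) (Log2FC 1.85), with 4 of 6 CC-Ex rats above all Ex rats. Bmal1, the core activator, was at 1.34 to 16.4 CPM in Ex (median 5.02) and 8.69 to 64.9 CPM in CC-Ex (median 30.5) (Log2FC 2.15, adjusted p = 0.0596), and Dbp at 20.4 to 128 CPM in Ex (median 72.2) and 5.58 to 41.7 CPM in CC-Ex (median 14.8) (Log2FC -1.83, adjusted p = 0.0907). Bhlhe41 was at a Log2FC of -1.18 (adjusted p = 0.0994). Of 17 measured clock genes, 6 were higher, or 3 without CC-Ex replicate 5, and 3 lower at an unadjusted p under 0.05, beside 14.8% and 7.72% of all genes. Without CC-Ex replicate 5, 7.76% of all genes were higher at this p.

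Among antioxidant and NRF2 genes, none of 24 passed adjustment, while 10 were higher at an unadjusted p under 0.05 and 4 without CC-Ex replicate 5 (median 0.28, then 0.13). The shares of all genes in these fits were 14.8% and 7.76%. Sqor, which oxidises sulfide in mitochondria, was at a Log2FC of 1.69 (adjusted p = 0.0645) and the NRF2 target Nqo1 at a Log2FC of 0.70 (adjusted p = 0.0678). Polyamine genes (12, median 0.09) held none past adjustment.

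The rising DEGs were shared unevenly among the 6 CC-Ex rats. Their mean difference from the Ex mean was 3.05 on the log2 scale in CC-Ex replicate 5, 2.29 in replicate 6, 1.67 in 3, 1.39 in 2, 0.72 in 1 and 0.33 in 4. CC-Ex replicate 5 was the highest of the 6 in 39 of the 48 rising DEGs and replicate 4 the lowest in 34. Replicates 3, 5 and 6 were above every Ex rat in 48 of 48, and replicate 4 in 10. These counts describe genes chosen on the same rats. Of the 348 genes with a Log2FC of at least 1 in size, 197 were under 1 and 9 reversed when CC-Ex replicate 5 was left out. With CC-Ex replicate 6 or 4 left out, 41 or 22 were under 1 and 0 reversed. The median Log2FC of the 48 rising DEGs was 1.76 with all rats and 1.33 without CC-Ex replicate 5. All 48 kept an unadjusted p under 0.05, which their selection by a small p in nearly the same rats made almost certain.

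**Figure D3:**
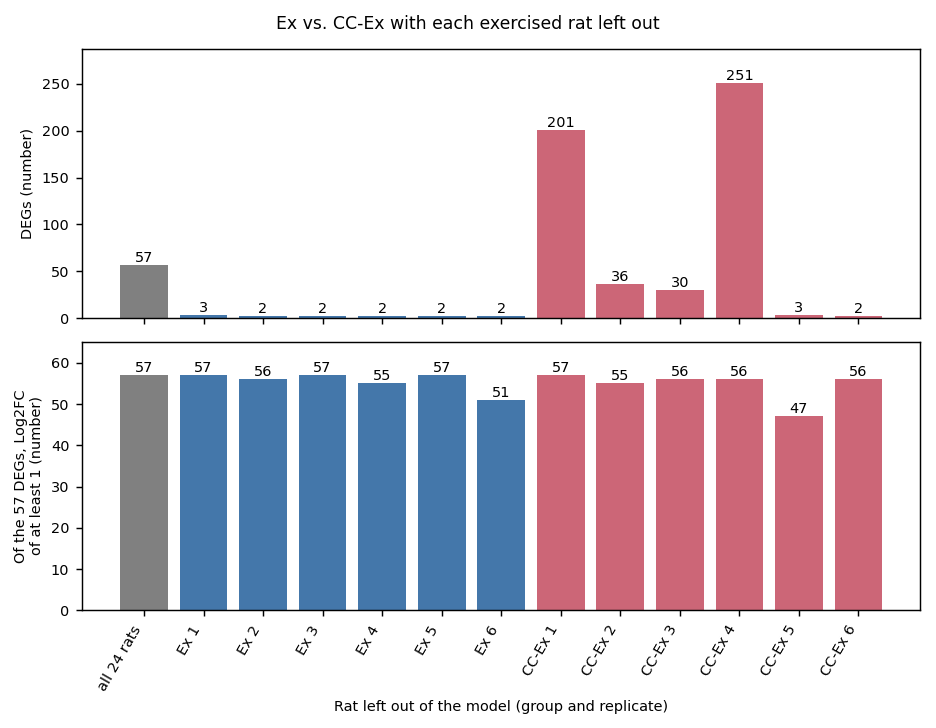
Top, number of DEGs in Ex vs. CC-Ex when 1 exercised rat is left out, by rat, against 57 with all rats. Bottom, number of those 57 whose Log2FC was still at least 1 in size. The DEG count runs from 2 to 251, whereas 47 to 57 of the 57 keep their size.

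In 11 DEGs a single rat moved the fold change by more than 1.5 times, and in each it was CC-Ex replicate 5. Mt2A, Tmem140, Slc7a6, Gpr157, Maff and Il6r were given with their values without it. Fbxo32 moved from 3.02 to 2.07, Ddit4 from 2.83 to 2.13 and Sesn1 from 2.31 to 1.67. Gabarapl1 moved from 2.10 to 1.34 and Depp1 from 2.26 to 1.51. At the other end, Prodh and Inhbb depended little on that rat, at 2.18 and 2.05 without it. Without CC-Ex replicate 5, 3 DEGs remained, Acer2, Inhbb and Prodh, and at the adjusted p-value alone Gstm7, a glutathione transferase (Log2FC 0.69), and Fmr1 (0.36) passed with them. Leaving out a control rat also lowered the count. It was 3 without Ex replicate 1 (Acer2, Inhbb and Glul) and 2 without any other Ex rat or CC-Ex replicate 6. It was 201 without CC-Ex replicate 1 and 251 without CC-Ex replicate 4. The adjusted p-value lay between 0.03 and 0.05 in 55 of the 57 DEGs. Each of the 57 had an unadjusted p under 0.05 in all 12 fits. Genes chosen by a small p in nearly the same rats were almost bound to, so this is no test of stability. With upper-quartile scaling there were 20 DEGs.

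**Figure D4:**
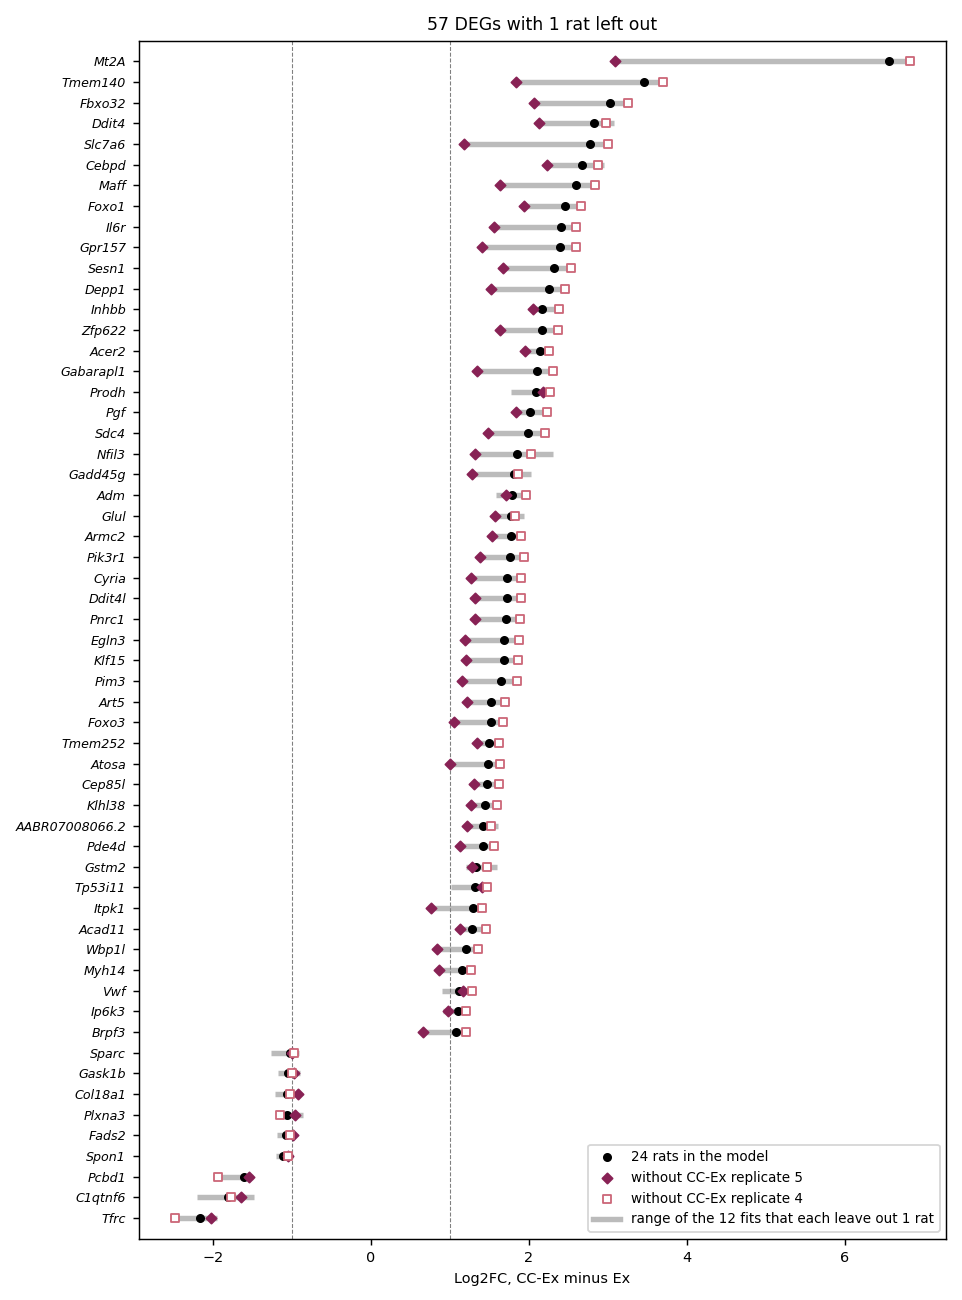
Log2FC (CC-Ex minus Ex) of the 57 DEGs with all rats, without CC-Ex replicate 5 and without CC-Ex replicate 4, with bars from the lowest to the highest value when each exercised rat is left out. Acer2 and Inhbb have short bars, and Mt2A runs down to 3.09 without CC-Ex replicate 5.

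The same contrast in untrained rats (Sed vs. CC-Sed, other animals than Ex and CC-Ex) called 701 genes at an adjusted p under 0.05 (6.46%) and 3083 (28.4%) before adjustment. All 57 DEGs of the exercised rats had the same sign there, 44 passed the adjusted test and 56 had an unadjusted p under 0.05. The Log2FC of Mt2A was 5.28, of Fbxo32 2.62, of Acer2 2.17, of Prodh 2.56 and of Tfrc -1.45, beside 6.56, 3.02, 2.13, 2.08 and -2.17 in trained rats. The exception was Gask1b, with -0.11 in untrained and -1.05 in trained rats, the only DEG with an interaction p under 0.05 (0.00735, adjusted p = 1). The size of the Log2FC was larger in trained rats in 39 of the 57, which were chosen in trained rats.

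The interaction, the difference between the effect of monocrotaline in trained and in untrained rats, passed the adjusted edgeR test in 0 genes, and 154 (1.42%) had an unadjusted p under 0.05. DESeq2 and limma-voom also called 0, with 197 and 474 before adjustment. As each exercised rat was left out of the edgeR fit, 119 to 489 genes had such a p, the most without CC-Ex replicate 5. The share of 1.42% lay under the threshold of 0.05 itself, so it is a low background for the lists below. The smallest p-values belonged to Phlpp2, an Akt phosphatase (0.000635), Micall2, Dnajb14, Nav3 and Creb5. Phlpp2 was lower in all 6 CC-Ex rats than in any Ex rat, with a Log2FC of -0.54, and had 0.41 in untrained rats. The other 4 had negative values in trained and positive values in untrained rats: Micall2 -0.22 and 0.71, Dnajb14 -0.57 and 0.35, Nav3 -0.50 and 1.17, and Creb5 -0.73 and 0.40. List medians of the Log2FC, whose difference was not tested, were 0.12 in trained and 1.36 in untrained rats for slow-fibre genes. They were 0.07 and 0.65 for fatty acid uptake and oxidation, -0.92 and -0.43 for extracellular matrix, 0.12 and 0.54 for triglyceride genes, and 0.52 and 0.53 for the proteasome. Of their members, 0 of 10 slow-fibre, 0 of 30 matrix and 0 of 34 proteasome genes had an unadjusted interaction p under 0.05. In the fatty acid list 4 of 30 did and in the triglyceride list 1 of 21, beside 1.42% of all genes. The trained slow-fibre median includes Ex replicate 1 and CC-Ex replicates 4 and 5, where these genes were very low. Dgat2 had a Log2FC of 0.12 in trained and 1.56 in untrained rats, with an interaction p of 0.00806 (adjusted p = 1). As each exercised rat was left out, its Log2FC in trained rats ran from 0.0074 to 0.54.

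**Figure D5:**
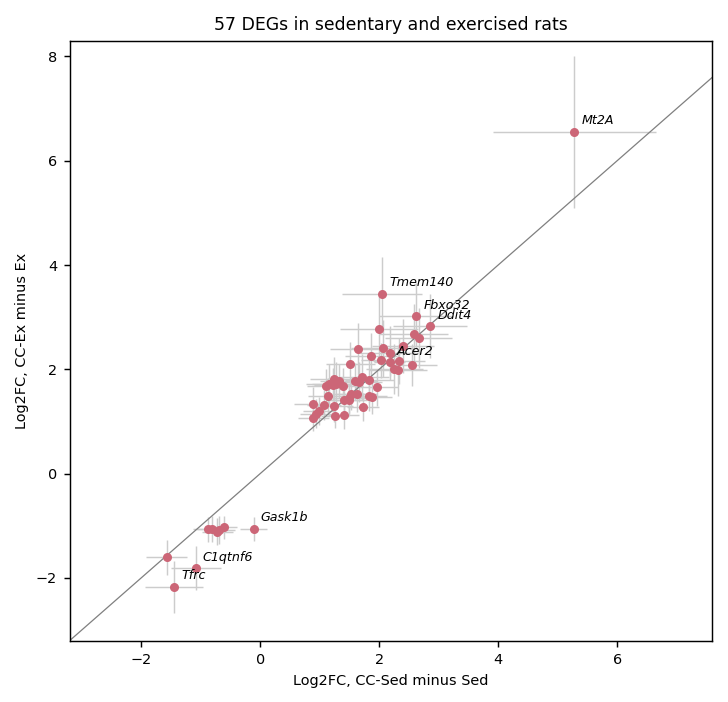
Log2FC of the 57 DEGs in untrained rats (CC-Sed minus Sed, horizontal) and in trained rats (CC-Ex minus Ex, vertical), with standard errors and the line of equality. All points lie in the quadrants of equal sign, and Gask1b lies near 0 on the horizontal axis at -0.11.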

How the data were processed

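Medial gastrocnemius RNA of 24 rats was sequenced as stranded poly-A libraries. The authors trimmed reads with Trim Galore, quantified them with Salmon and tximport on mRatBN7.2 and deposited estimated counts per gene as whole numbers, with genes kept at 10 or more counts in every rat. Each of the 24 value columns matched 1 rat by its label.

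The deposited estimated counts were scaled by TMM and fitted with the quasi-likelihood test of edgeR 4.0.16 (R 4.3.3) in 1 model of 4 groups and 24 rats, with the contrast CC-Ex minus Ex, Benjamini-Hochberg adjustment over 10851 genes, and a standard error from the Log2FC and F. CPM are TMM-scaled. DESeq2 1.42.0 and limma 3.58.1 were alternatives, as were scaling, filters, library number, a replicate block and leaving out each exercised rat. A single gene was also compared by a two-sided exact permutation test over 924 arrangements. Each replicate was a separate rat.

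Named genes were the 12 largest rises and the falls among DEGs, the 10 smallest p-values, DEGs kept in most fits without 1 rat, up to 6 members of each list by unadjusted p with defining members, genes the study's text names for this comparison, the 5 smallest interaction p-values and the 8 DEGs moved most by 1 rat. Gstm7 was added after its values were seen. Members and lists were chosen with earlier results of these data known. The other DEGs were named to account for all 57. Promoters came from RefSeq tables. Some genes are not reported here. Errors come from the spread between rats, and counting error was not given apart.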

Additional observations from a re-analysis of the deposited data

Results flagged for a closer look

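In 20 of 264 groups of 6 rats 1 rat lay far from the other 5 by Dixon's ratio of its gap to the range on the log2 scale. Chance flags about 1 in 20 groups, but the groups screened are not independent. They are those of the named genes, some of which were named because 1 rat moved them most or for large rises. The chance rate is therefore no fair measure of these flags. CC-Ex replicate 5 was the rat in 10 of the 20. In that rat, against the other 5 CC-Ex rats, Dbt at 261 CPM against 72.0 to 115, Eif3a at 799 CPM against 198 to 225, Fbxo31 at 353 CPM against 81.8 to 91.4, Il6st at 279.9 CPM against 58.9 to 96.3 and Itpk1 at 25.9 CPM against 5.53 to 9.00 stood apart. The same held for Map1lc3b at 898 CPM against 56.1 to 150.4, Psmc2 at 328 CPM against 109.9 to 165, Psmd8 at 393 CPM against 58.5 to 98.1, Sgms1 at 145 CPM against 18.7 to 31.7 and Tgfb3 at 7.18 CPM against 13.1 to 17.1. Elsewhere in CC-Ex, Dgat2 at 26.3 CPM in CC-Ex replicate 4 against 47.0 to 61.1 in the other 5, Micall2 at 0.84 CPM in CC-Ex replicate 4 against 1.24 to 1.53 in the other 5 and Sparc at 568 CPM in CC-Ex replicate 1 against 241 to 308 in the other 5 stood apart. In Ex, Fmr1 at 20.7 CPM in Ex replicate 3 against 22.1 to 22.7 in the other 5, Il6r at 3.72 CPM in Ex replicate 2 against 13.1 to 14.7 in the other 5, Prodh at 8.46 CPM in Ex replicate 1 against 4.40 to 5.57 in the other 5 and Prx at 23.5 CPM in Ex replicate 1 against 4.33 to 7.33 in the other 5 stood apart. Also in Ex, Psmd8 at 74.1 CPM in Ex replicate 1 against 52.5 to 59.2 in the other 5, Tnnc1 at 3.74 CPM in Ex replicate 1 against 142 to 928 in the other 5 and Ulk1 at 41.5 CPM in Ex replicate 6 against 52.2 to 57.9 in the other 5 stood apart.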

How the results depend on the processing

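The number of DEGs, 57 in the edgeR fit of 24 rats, was 214 with DESeq2, 133 with limma-voom and quality weights, 36 with library number as a covariate, 20 with upper-quartile scaling and 1 with the 12 exercised rats alone. Of the 57, 43 were DEGs with limma-voom and 28 with library number. Limma-voom gave CC-Ex replicate 5 a weight of 0.10, the lowest of the 24 rats. Library numbers ran from 1 to 14 in CC-Ex and from 7 to 23 in Ex, so that covariate is partly bound to the group. The number of DEGs was 191 at an adjusted p under 0.10, chosen after seeing the data, and 57 with a mean of at least 1 CPM. The filter on low counts removed none of the 10851 genes, so the fit without it was the same fit, with 57. Leaving out 1 rat gave 2 to 251 DEGs. At the adjusted p-value alone, 108 genes became 685 with DESeq2, 1043 with limma-voom, 42 with library number, 23 with upper-quartile scaling, 1 with the 12 rats and 2 to 847 with 1 rat left out. The 117 genes without overlap became 137 to 595 with 1 rat fewer. Removing a rat can only keep or raise this count, but the rise depended on the rat. It was 595 without CC-Ex replicate 4, 334 without CC-Ex replicate 1, 271 without Ex replicate 1 and 137 to 187 without any other rat. The interaction, which needs all 4 groups, stayed at 0 genes at an adjusted p under 0.05 in each of these fits but that of the 12 rats, where it was not fitted.

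With the replicate number as a block, 1 gene (Acer2) was a DEG and 1 passed the adjusted p-value alone. Rats with the same number deviated with a mean correlation of -0.172 (-0.423 to 0.152), so the numbers do not pair the rats.

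Among single values, Micall2 reversed to 0.0075 and Nav3 to 0.047 with library number, and Tnnc1 to -0.043 without CC-Ex replicate 3, in a range up to 1.02 as each rat was left out. Mstn, at -0.29 with all rats, reversed to 0.17 without Ex replicate 1, in a range down to -0.55. List medians moved to -0.06 (iron, heme and globin) and 0.05 (translation) without CC-Ex replicate 5, and to 0.05 for translation with limma-voom. Upper-quartile scaling turned the ceramide median from 0.05 to -0.03 and that of PGC-1, PPAR and ERR regulators from 0.08 to -0.00 (-0.14 without CC-Ex replicate 3 and -0.01 without CC-Ex replicate 5), and library number turned that of zinc genes from -0.01 to 0.04 (0.01 without CC-Ex replicate 3 or 4). The fatty acid median turned from 0.07 to -0.04 without Ex replicate 1 or CC-Ex replicate 1. The medians of triglyceride, ceramide and endothelial genes turned to -0.02 without CC-Ex replicate 1, that of endothelial genes also without Ex replicate 6, and that of slow-fibre genes to -0.11 without CC-Ex replicate 3. The causes were not tested. Genes under 10 counts in any rat limit what can be seen.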
